A study of Mus musculus with 2 samples.

Results

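The genes described here are 10 of the 43346 mouse genes measured in the series. They are the effectors, kinases and best known targets of the Hippo pathway, chosen by symbol: Yap1, Wwtr1, Tead1, Tead2, Tead3, Tead4, Lats1, Lats2, Ctgf and Cyr61. Ctgf and Cyr61 are named Ccn2 and Ccn1 in the annotation used for symbols. All 10 had a row in the gene table of each library. The samples were limbs of B6NCrl mouse embryos at 15.5 days, with no treatment or mutation given in the labels. There was 1 group of 2 biological replicates, each a pool of embryos of both sexes, with 78 embryos in replicate 1 and 62 in replicate 2. Each library was made from 10 ng of total RNA longer than 200 nt. Which limbs were dissected is not in the labels. The series therefore gives levels in this tissue and the spread between pools, and no condition is compared.

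The Hippo pathway is a kinase cascade that limits growth and reads cell contact and mechanical tension. The kinases Lats1 and Lats2 phosphorylate the coactivators Yap1 and Wwtr1 (whose protein is called TAZ), which keeps them out of the nucleus. In the nucleus Yap1 and TAZ have no DNA-binding domain of their own and act through the TEAD factors, and Ctgf and Cyr61, secreted matricellular proteins, are among the genes they switch on. Activity in this pathway is set largely by phosphorylation and localisation of proteins, which RNA levels do not show.

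Expected counts, estimated numbers of reads per gene, summed to 35104685 in replicate 1 and 41757268 in replicate 2. Levels are in TPM, an abundance scale summing to the same total in every library, which divides by length and library size, so that genes can be compared with each other. The limb genes Msx1 and Shox2 were at 122 ± 12.8 and 28.0 ± 0.240 TPM (SD, n = 2). Markers of cartilage (Col2a1 710 ± 30.2 and Col9a1 146 ± 2.25 TPM), epidermis (Krtdap 2925 ± 234 and Krt14 1066 ± 51.5 TPM) and endothelium (Egfl7 96.0 ± 10.3 and Eng 56.9 ± 5.18 TPM) were present. So were those of mesenchyme (Col1a1 4474 ± 647 and Col3a1 3010 ± 307 TPM) and red cells (Hba-a2 13937 ± 52.4 and Hbb-bs 6896 ± 9.32 TPM). Skeletal muscle markers stood apart between the pools. All 10 were higher in replicate 1, and they summed to 6243 TPM there and 1896 TPM in replicate 2.

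Every one of the 10 Hippo genes was detected in limb, with at least 1 TPM in both libraries, a level that 34.6% of all mouse genes reached. Of the 10, 8 had at least 10 TPM in both libraries. They ran from Tead2, above 90.3% of the genes detected at a mean of 1 TPM, to Tead4, above 28.4% of them, and counts per gene and library lay between 254 and 5605. In 8 of the 10 the expected counts were whole numbers in both libraries. For Yap1 and Ctgf reads were shared with a gene on the opposite strand, as given below.

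The sequences that follow are those that separate the transcripts compared in the sections on Yap1 and the TEAD genes. They were read from GENCODE M21 transcripts on GRCm38. Capitals mark the exons concerned and lower case marks flanking exon sequence, or the intron in the Tead1 stretch.
Yap1 alternative exon, chr9:7950492-7950539, minus strand: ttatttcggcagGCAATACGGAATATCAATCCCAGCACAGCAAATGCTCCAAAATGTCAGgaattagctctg
Tead1 tandem exons with the intron between them, chr7:112841888-112842102, plus strand: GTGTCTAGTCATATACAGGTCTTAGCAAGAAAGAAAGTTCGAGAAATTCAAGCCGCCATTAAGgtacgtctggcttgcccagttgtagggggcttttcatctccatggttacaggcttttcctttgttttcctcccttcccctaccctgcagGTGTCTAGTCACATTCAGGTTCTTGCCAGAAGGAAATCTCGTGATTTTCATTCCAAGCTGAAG
Tead1 short exon, chr7:112856053-112856064, plus strand: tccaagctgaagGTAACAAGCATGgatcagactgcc
Tead4 alternative exon, chr6:128247960-128248088, minus strand: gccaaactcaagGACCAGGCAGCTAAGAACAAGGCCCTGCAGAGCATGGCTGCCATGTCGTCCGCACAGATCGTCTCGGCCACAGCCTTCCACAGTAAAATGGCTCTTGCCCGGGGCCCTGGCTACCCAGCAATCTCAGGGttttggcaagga

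The coactivators Yap1 and Wwtr1 were present at similar levels. Wwtr1 (ENSMUSG00000027803.10, chromosome 3, 57455649 to 57575910, minus strand, GRCm38) stood at 33.31 TPM in replicate 1 and at 29.81 TPM in replicate 2. Yap1 (ENSMUSG00000053110.9, chromosome 9, 7931999 to 8004596, minus strand) had 25.97 and 33.75 TPM. In TPM Wwtr1 was thus the higher of them in replicate 1 and Yap1 in replicate 2. Log2 of Yap1 over Wwtr1 was -0.36 in replicate 1 and 0.18 in replicate 2, a mean of -0.09 ± 0.38 (SD, n = 2). The yardstick for this pair was 0.39, so neither library set them apart in TPM. The yardstick is a limit that most genes of like level stay under between these pools. It is the size of log2 difference that 95 in 100 genes stay under within the same of 20 bins of mean TPM. A pair takes that of the noisier gene, and a ratio of sums that of the noisiest gene in it, however small its part. The yardstick measures the spread of a gene between pools, not the error of a ratio between different genes within a library. With counts not divided by length, log2 of Yap1 over Wwtr1 was -0.58 in replicate 1 and -0.03 in replicate 2, so Wwtr1 was higher in both. Only the value of replicate 1 lay beyond 0.34, the yardstick of both genes with expected counts scaled by edgeR. Together the coactivators stood at 59.3 TPM in replicate 1 and at 63.6 TPM in replicate 2, and Yap1 was 43.8% and 53.1% of that sum.

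Yap1 was found in forms with and without the 48-nt exon printed above. In human YAP1 such an exon adds residues to the part of the protein that activates transcription. Yap1-202, without the exon, carried 61.8% of Yap1 TPM in replicate 1 and 58.1% in replicate 2, on 1438 and 2145 estimated counts. Yap1-201, with it, carried 32.3% and 37.9%, on 763 and 1421 counts. Over transcripts that hold the exon or splice across it, 38.2% ± 2.72 of TPM held it (SD, n = 2; 36.2% and 40.1%). The form without the exon was the larger in each library, and the deposited intervals of the 2 forms did not overlap, at 12.8 to 18.0 against 5.73 to 10.8 TPM in replicate 1 and 17.1 to 22.2 against 9.52 to 14.4 TPM in replicate 2. Wwtr1 was carried almost wholly by Wwtr1-201, with 96.1% and 97.6% of its TPM.

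Among the TEAD factors, which bind DNA for both coactivators, Tead2 was the most abundant. Tead2 (ENSMUSG00000030796.11, chromosome 7, 45215753 to 45233644, plus strand), a TEAD of embryonic tissues, stood at 112.5 TPM in replicate 1 and at 109.9 TPM in replicate 2. Tead1 (ENSMUSG00000055320.12, chromosome 7, 112679318 to 112906807, plus strand) had 18.69 and 19.75 TPM. Tead3 (ENSMUSG00000002249.13, chromosome 17, 28331671 to 28350817, minus strand) had 12.37 and 12.83 TPM. These 3 genes each varied little between the pools. Tead4 (ENSMUSG00000030353.11, chromosome 6, 128224288 to 128300823, minus strand), which acts in the differentiation of skeletal muscle, stood at 7.52 TPM in replicate 1 and at 4.01 TPM in replicate 2. Of the summed TEAD TPM, Tead2 made up 74.7% ± 0.395, Tead1 12.9% ± 0.786, Tead3 8.47% ± 0.403 and Tead4 3.86% ± 1.58 (SD, n = 2).

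Log2 of Tead1 over Tead2 was -2.53 ± 0.08, with a yardstick of 0.47, so Tead1 was 5.76-fold lower. Tead1 over Tead3 was 0.60 ± 0.02 (yardstick 0.56) and Tead1 over Tead4 was 1.79 ± 0.69 (yardstick 0.96), both beyond the yardstick in each library. With a pseudocount of 1 in place of 0.1, Tead1 over Tead3 was 0.56 in replicate 1 and 0.59 in replicate 2. The yardstick of Tead3 with that pseudocount was 0.52, so both stayed beyond it. The first place of Tead2 rested on full-length forms. Tead2-201 carried 67.3% of its TPM in replicate 1 and 75.5% in replicate 2, and transcripts of at least 1000 nt carried 85.0% and 87.2%. The places of Tead1, Tead3 and Tead4 did not rest on such forms alike, as the transcripts of Tead1 show.

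Most of the Tead1 level was assigned to short transcripts that retain an intron. Tead1-209, annotated as a retained intron and 646 nt long, carried 49.5% of Tead1 TPM in replicate 1 and 53.2% in replicate 2, but only 113 and 157 of 1390 and 1706 estimated counts. Tead1-214, a second retained-intron transcript of 894 nt, carried 11.5% and 12.4%. Tead1-202, the main coding transcript, is 9480 nt long and carried 28.9% and 26.7% of TPM on 1128 and 1351 counts. Reads were thus mostly those of the coding transcript, while TPM, which divides by length, was mostly that of the short ones. With transcripts of at least 1000 nt alone, a limit set after the values were seen, Tead1 had 6.08 and 6.03 TPM and Tead3 had 12.1 and 12.2 TPM. Log2 of Tead1 over Tead3 was then -0.99 ± 0.02, so the order of Tead1 and Tead3 turned round, and Tead1 over Tead4 fell to 0.14 ± 0.62. Expected counts, not divided by length, gave 1.02 ± 0.01 for Tead1 over Tead3. Tead2 stayed the highest TEAD gene under each of these choices.

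**Figure D1:**
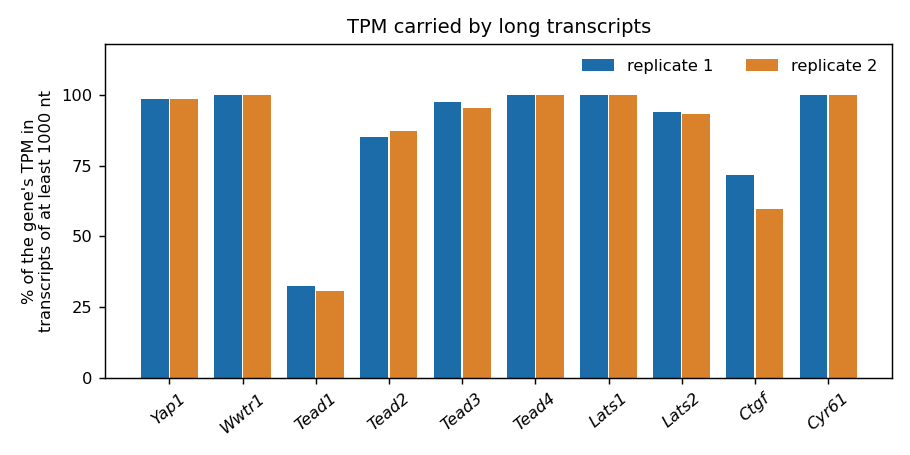
Percent of each gene's TPM (vertical axis, from 0) that was assigned to transcripts of at least 1000 nt, with a bar for each library. Tead1 stands lowest, at 32.5% in replicate 1 and 30.5% in replicate 2, followed by Ctgf at 71.7% and 59.9%, while the other 8 genes were at 85.0% or more.

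The Tead1 sequence printed above lies in the part of the gene that codes for the DNA-binding TEA domain. It holds tandem exons of 63 nt each, 89 nt apart, with 44 identical bases (69.8%) when set side by side without gaps. Tead1-209 runs through the intron between them and 272 nt beyond the downstream exon. Tead1-202 holds the downstream exon alone. Over transcripts that hold the upstream exon as a separate exon or splice across it, 7.33% ± 1.51 of TPM held it (8.39% and 6.26%). Tead1-209, with 49.5% and 53.2% of Tead1 TPM, was in neither group, since it holds these bases within a longer exon. The transcripts that splice across the upstream exon include Tead1-214, the retained-intron transcript of 894 nt. By estimated counts the share was 8.12% ± 0.451. The 12-nt exon printed after it was held by 11.9% ± 0.770 of TPM over the transcripts that could show it, on 98.7 and 136 estimated counts. Neither exon was in Tead1-202, the main coding transcript.

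Tead3 and Tead4 each divided between transcripts. Tead3-201 carried 51.9% of Tead3 TPM in replicate 1 and 47.8% in replicate 2. A pair of other Tead3 transcripts changed places, with ENSMUST00000080572.9 at 28.7% and 1.40% and Tead3-206 at 1.78% and 32.6%. The deposited intervals of Tead3-206 ran from about 0 to 4.39 TPM in replicate 1 and to 4.96 TPM in replicate 2, so the reads did not settle which of these transcripts was present. Tead4-201, which holds the 129-nt exon printed above, carried 48.3% and 51.9% of Tead4 TPM, and Tead4-203, which lacks it, 51.7% and 48.1%. These Tead4 transcripts also differ in their first exons and in their last ones, so the shares do not measure that exon alone. Both Tead4 transcripts were higher in replicate 1, Tead4-201 with 3.64 and 2.08 TPM and Tead4-203 with 3.89 and 1.93 TPM.

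Of the kinases that hold the coactivators back, Lats2 exceeded Lats1. Lats2 (ENSMUSG00000021959.11, chromosome 14, 57689662 to 57758388, minus strand) stood at 21.09 TPM in replicate 1 and at 22.98 TPM in replicate 2. Lats1 (ENSMUSG00000040021.8, chromosome 10, 7681214 to 7716460, plus strand) had 5.38 and 6.76 TPM. Both were somewhat higher in replicate 2, and the ranges of the genes did not overlap. Log2 of Lats1 over Lats2 was -1.85 ± 0.14 against a yardstick of 0.96, so Lats1 was 3.61-fold lower, and it was -1.29 ± 0.16 with counts not divided by length. Lats1-202 carried 99.6% and 99.7% of Lats1 TPM, and Lats2-201 carried 90.0% and 88.9% of Lats2 TPM. The kinases together were lower than the coactivators together, with a log2 ratio of -1.13 ± 0.05, beyond the yardstick of 0.96. With counts not divided by length the ratio was -0.83 ± 0.06. Lats1, the noisiest of these genes, had a yardstick of 0.42 with expected counts scaled by edgeR, and the ratio lay beyond that in each library. Yap1 and Wwtr1 together were in turn below the 4 TEAD genes together, with a log2 ratio of -1.28 ± 0.10, beyond the yardstick of 0.96. With counts not divided by length this ratio was -0.24 ± 0.08, within the yardstick of 0.70 that Tead4 had with expected counts scaled by edgeR. With transcripts of at least 1000 nt it was -1.04 in replicate 1 and -0.90 in replicate 2, beyond the yardstick of 0.68 in that setting.

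Cyr61 was the higher of the target genes. Cyr61 (ENSMUSG00000028195.3, chromosome 3, 145646976 to 145649981, minus strand), whose protein binds integrins and promotes cartilage and vessel formation, stood at 87.67 TPM in replicate 1 and at 75.59 TPM in replicate 2. Ctgf (ENSMUSG00000019997.7, chromosome 10, 24595442 to 24598683, plus strand), a matrix protein of connective tissue and cartilage, had 16.05 and 16.99 TPM. Cyr61 was higher in replicate 1 and Ctgf about equal in the pools. Log2 of Ctgf over Cyr61 was -2.29 ± 0.21 against a yardstick of 0.47, so Ctgf was 4.91-fold lower. It was -2.90 ± 0.03 with transcripts of at least 1000 nt alone. Ctgf and Cyr61 together exceeded the coactivators together by a log2 ratio of 0.67 ± 0.19 in TPM, beyond the yardstick of 0.47, while with counts not divided by length the ratio was -0.52 ± 0.21. With transcripts of at least 1000 nt it was 0.75 in replicate 1 and 0.44 in replicate 2, where it lay within the yardstick.

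The Ctgf level depends on how reads were assigned. Ccn2-201, the full-length transcript, carried 69.8% of Ctgf TPM in replicate 1 and 57.9% in replicate 2, with 11.2 and 9.83 TPM. Ccn2-202, a fragment of 343 nt whose end is not complete in the annotation, carried 28.3% and 40.1% on 24.7 and 45.3 estimated counts. This fragment begins in the first exon and runs on into the first intron, and the boundary is shown here with the exon in capitals and the intron in lower case.
Ctgf first exon and intron, chr10:24595780-24595806, plus strand: TGCACCCGGgtaagccccgggactgac
Gm15270, annotated on the opposite strand across the 5′ part of Ctgf, had 80.5 and 110 estimated counts. Its counts and those of Ctgf (616 and 684) added up to 696 and 794, whole numbers in both libraries, so the reads at this locus were divided between the 2 genes. For Yap1 the overlapping gene Gm20416 took 0 and 2.09 counts. The sources used here do not say whether counting used strand.

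Promoter sequence was at hand for 7 of the 10 genes, from RefSeq on GRCm38.p6, and not for Tead1, Tead4 and Ctgf. Each window ran from 250 bases before the transcription start to 50 after it. The letters GGAATG, the core of the TEAD binding motif, were searched on both strands, where the other strand reads CATTCC. They were found in 14.7% of 32851 promoter windows, and in at least 1 window of 16.6% of 27025 genes. Among the Hippo genes they were found for Yap1, Wwtr1, Tead3, Lats2 and Cyr61, 5 of 7, and not for Tead2 and Lats1. By window they were found in 7 of 11, where the 2 windows of Wwtr1 hold the same match. A gene with more windows has more places for a match. The shorter letters GGAAT were found for 6 of the 7, Tead2 added, and in 42.2% of all genes and 38.7% of all windows. These matches describe letters and were not tested for binding. Positions count from the transcription start, negative before it. The lines that follow show the match in capitals for the coactivators and Lats2, and for Cyr61 the 250 bases before its start.
Yap1, position -141, chr9:8004732-8004737, minus strand: ggagtctgcaGGAATGtagcgacgcg
Wwtr1, position -136 from the more upstream of 2 starts, chr3:57576041-57576046, minus strand: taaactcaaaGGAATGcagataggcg
Lats2, position 5, chr14:57746114-57746119, minus strand: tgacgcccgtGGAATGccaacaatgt
Cyr61, chr3:145649986-145650235, minus strand: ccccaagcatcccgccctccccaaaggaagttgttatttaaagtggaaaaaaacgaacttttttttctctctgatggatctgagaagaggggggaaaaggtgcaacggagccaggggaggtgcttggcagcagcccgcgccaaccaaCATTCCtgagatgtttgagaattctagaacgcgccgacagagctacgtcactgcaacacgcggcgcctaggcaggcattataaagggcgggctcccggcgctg
In Cyr61 the match began at position -103. Tead3 had matches in 2 of its 3 annotated windows.

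**Figure D2:**
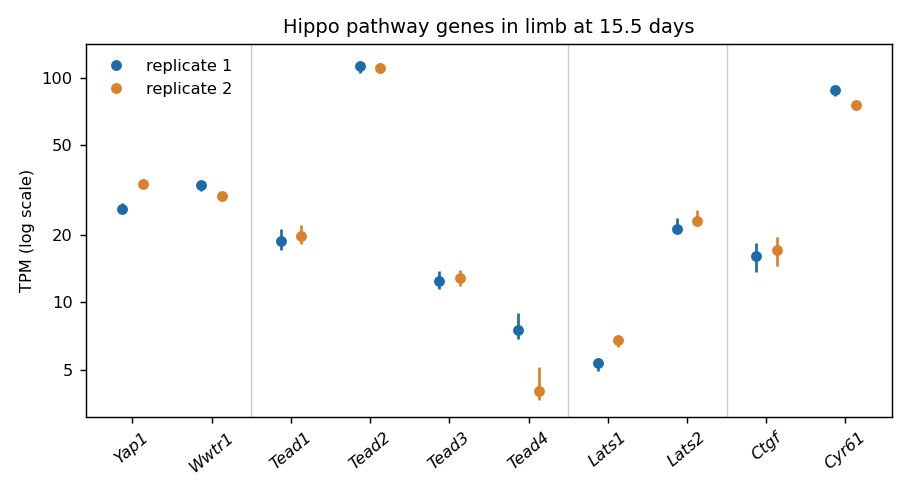
TPM on a log axis of the 10 Hippo genes, grouped by role from left to right as coactivators, TEAD factors, kinases and targets, with a point for each library and the deposited interval of each value as a line. Tead2 and Cyr61 stand above the rest, at 110 to 113 and 75.6 to 87.7 TPM, and Lats1 and Tead4 lowest, at 4.01 to 7.52 TPM.

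In order of mean TPM the genes ran Tead2, Cyr61, Wwtr1, Yap1, Lats2, Tead1, Ctgf, Tead3, Lats1 and Tead4. Only the step between Cyr61 and Wwtr1 was larger than the yardstick in both libraries, at 1.39 and 1.34 on the log2 scale. Each of the other 8 neighbouring pairs stayed within it in at least 1 library. Wwtr1 and Yap1, and Lats1 and Tead4, exchanged order between the pools.

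Between the pools the Hippo genes differed about as much as other genes did. None of the 10 was over 2-fold apart, where 3.63% of the 15571 genes with a mean of at least 1 TPM were (2.47% higher in replicate 1 and 1.16% higher in replicate 2). That share of all genes ranged from 1.88% with transcripts of at least 1000 nt to 12.7% with expected counts scaled by edgeR or DESeq2, where 23413 genes were included. With 1 group of pools there was nothing to test, and no p-value was computed. The median absolute log2 difference was 0.14 over the 10 genes and 0.13 over all genes tested, on TPM + 0.1 and centred on the median gene. Of the 10, 6 were higher in replicate 2, where centring on the median gene sets the share of all genes to 50%. Yap1 was higher in replicate 2 by a log2 difference of 0.40, just past its yardstick of 0.39, which 5% of genes pass by construction. It was within the yardstick without centring, with 10 bins in place of 20, and with no filter on TPM. Cyr61 at -0.19 and Wwtr1 at -0.14 leaned toward replicate 1, and Lats1 at 0.35 toward replicate 2. Limb position genes were higher in replicate 2 in 8 of 10 cases, with a median log2 difference of 0.50, though Shox2 only by 0.006. The other 2, Msx1 at -0.19 and Tbx5 at -0.39, were higher in replicate 1. Tbx5 is named here after its values were seen. The 10 endothelial markers were all higher in replicate 1, with a median of -0.19. The part of either marker list in the differences of Yap1 and Cyr61 was not tested.

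Tead4 showed the widest difference of the 10, at -0.87 on the log2 scale, 1.82-fold higher in replicate 1. The counts behind it were 382 in replicate 1 and 254 in replicate 2. The deposited intervals of 6.88 to 8.93 and 3.67 to 5.14 TPM did not overlap. Neither did those of Wwtr1, which was only 1.10-fold apart, so intervals lying apart do not mark Tead4 out. The yardstick of Tead4 was 0.96, and Tead4 passed the yardstick under 4 other choices, with expected counts scaled by edgeR or DESeq2 (0.70), with no filter on TPM (0.81) and with transcripts of at least 1000 nt (0.68). The skeletal muscle markers moved the same way, 10 of 10 higher in replicate 1 with a median log2 difference of -1.53. Acta1, skeletal alpha actin, stood at 2862 TPM in replicate 1 and at 779 TPM in replicate 2, and Mylpf, a fast muscle light chain, had 972 and 330 TPM. The part of muscle content in the Tead4 difference was not tested. In bulk tissue, fewer cells of a type and less RNA per cell cannot be told apart.

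**Figure D3:**
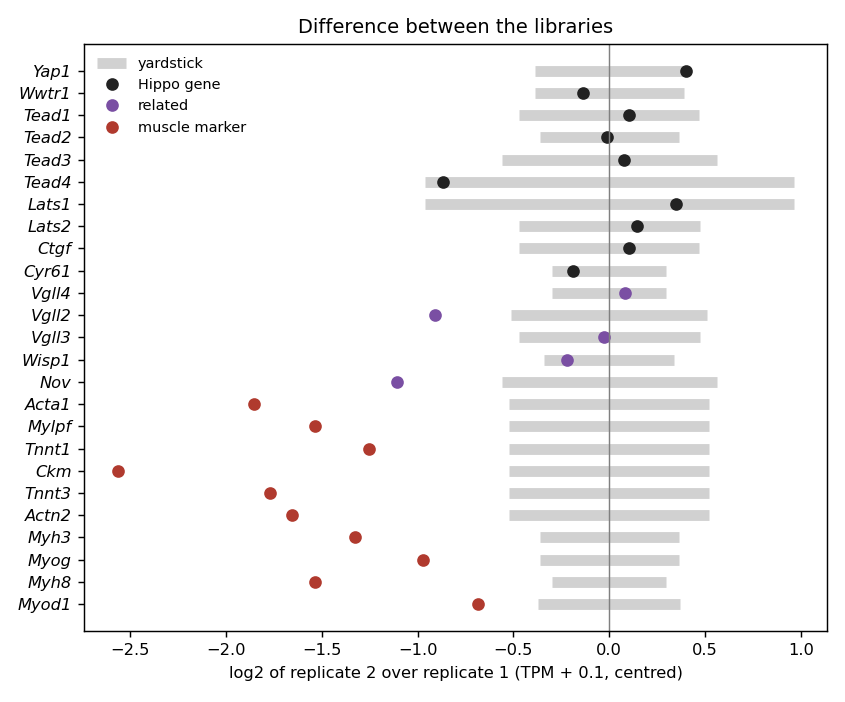
Log2 of replicate 2 over replicate 1 on TPM + 0.1, centred on the median gene, for the 10 Hippo genes, the related TEAD cofactors and CCN genes with a mean of at least 1 TPM, and 10 skeletal muscle markers, with grey bars for the yardstick of each gene. Among the Hippo genes Tead4 lies farthest from 0 at -0.87 and Yap1 farthest to the right at 0.40, while the muscle markers lie between -2.56 and -0.68.

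The vestigial-like cofactors, which bind TEAD factors in place of Yap1 and TAZ, included a muscle gene that was also higher in replicate 1. Vgll4, which competes with Yap1 for TEAD, stood at 91.1 TPM in replicate 1 and at 94.8 TPM in replicate 2, near the level of Tead2. Vgll2, a cofactor of skeletal muscle, had 34.3 and 17.9 TPM, a log2 difference of -0.91 against a yardstick of 0.51. Vgll3 had 14.6 and 14.1 TPM, and Vgll1 had 0.250 and 0.270 TPM on 12 and 16 counts. Of the 3 with a mean of at least 1 TPM, only Vgll2 differed by more than its yardstick.

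In the CCN family, matricellular proteins of shared domain plan, Cyr61 and Wisp1 predominated. Wisp1 stood at 68.7 TPM in replicate 1 and at 58.0 TPM in replicate 2. Cyr61 was 46.9% ± 0.932 of the summed TPM of the 6 genes, Wisp1 36.4% ± 0.175, Ctgf 9.57% ± 1.57 and Nov 6.12% ± 2.59. Nov had 15.1 and 6.82 TPM and was the only one of the 6 over 2-fold apart, 2.16-fold higher in replicate 1. Wisp3, at 1.19 and 0.720 TPM, and Wisp2, at 0.970 and 0.880 TPM, were near the limit of 1 TPM.

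The kinases, scaffolds and adaptors above Lats1 and Lats2 were all expressed. All 13 genes of this list had at least 1 TPM in both libraries, a level that 34.6% of all mouse genes reached. Their median was 17.0 TPM (replicate 1) and 18.3 TPM (replicate 2). Mob1a, an activator that binds the LATS kinases, had 57.0 ± 0.530 TPM, Frmd6, a membrane-linked activator, had 53.4 ± 2.86 TPM, and Nf2, which encodes the scaffold merlin, had 38.2 ± 0.877 TPM (SD, n = 2). Sav1, the adaptor of the upstream kinases, had 6.71 ± 0.233 TPM and Wwc1, also called Kibra, stood at 5.10 TPM in replicate 1 and at 4.90 TPM in replicate 2. None of the 13 differed over 2-fold, where 3.63% of genes with a mean of at least 1 TPM did. None was past its yardstick, which 5% of genes pass by construction.

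Of the cadherins, angiomotins and polarity genes that feed into the pathway, 8 of 11 had at least 1 TPM in both libraries. Over all mouse genes the share was 34.6%. Amotl2, an angiomotin that binds Yap1 and is also a target, had 51.1 ± 1.56 TPM, Amotl1 29.0 ± 1.24 TPM and the atypical cadherin Fat1 28.9 ± 2.38 TPM. Of the other atypical cadherins, Dchs1 had 12.4 ± 1.52 TPM and Fat4 had 9.5 ± 2.11 TPM. Fat2 (0.855 ± 0.0212 TPM) and Dchs2 (0.810 ± 0.127 TPM) were the lowest of the 11, with Fat3 at 0.975 ± 0.163 TPM. Dchs1, Fat3 and Fat4 are named here after their values were seen. None of the 8 was over 2-fold apart, against 3.63% of all genes with a mean of at least 1 TPM.

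A signature of 22 genes known to respond to YAP and TAZ, which includes Ctgf, Cyr61 and Lats2, was expressed widely. Of the 22, 21 had at least 1 TPM in both libraries, against 34.6% of all mouse genes. The median mean TPM of those 21 was 22.0 TPM, where that of all 15571 genes with a mean of at least 1 TPM was 15.8 TPM. Igfbp3, a binding protein of insulin-like growth factors, had 119 ± 4.57 TPM, the receptor kinase gene Axl 107 ± 3.71 TPM and Ccdc80 82.7 ± 9.72 TPM. Cyr61 came next by mean TPM and in replicate 1, while in replicate 2 Asap1 (82.4 TPM) and Rbms3 (81.1 TPM) also stood above its 75.6 TPM. Ankrd1, a muscle ankyrin repeat gene, stood at 4.52 TPM in replicate 1 and at 2.93 TPM in replicate 2, and Dock5 had 0.915 ± 0.0354 TPM. None was over 2-fold apart, against 3.63% of genes with a mean of at least 1 TPM, and the median log2 difference was 0.02. Fjx1 was past its yardstick of 0.47 at 0.61, higher in replicate 2, and is named here after its values were seen.

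**Figure D4:**
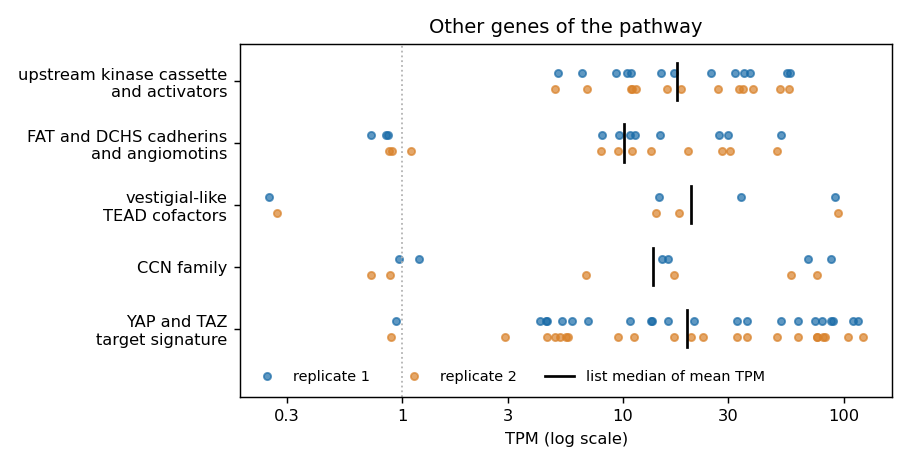
TPM on a log axis of the other genes of the pathway, in 5 lists by role, some of which also hold Ctgf, Cyr61 or Lats2, with a point for each gene and library and a black line at the median of the mean TPM of each list. The list medians lie between 10.1 and 20.2 TPM, and the dotted line marks 1 TPM.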

How the data were processed

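Per the labels, Ambion mirVana extraction was used, spike-ins were added, and a SMARTer Ultra Low kit manual is among the protocols. Per the deposited notes on each library the assembly was mm10 and the annotation M4, taken as GENCODE M4. For the aligner, the counting program and the use of strand, no statement is given in the sources used here. Per the file headers the deposited tables hold expected counts, TPM, posterior mean TPM and FPKM per gene and transcript, with an interval for each TPM whose level is not stated. A deposited percent column holds the share of a gene assigned to every transcript.

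Symbols, types and exons came from GENCODE M21 on GRCm38, the build of mm10, matched on identifiers without version. Of 43346 genes 42462 matched, as did 57 of 66 transcripts of the 10 genes. Means and SDs run over the 2 libraries. Log2 differences used TPM + 0.1 and genes with a mean of at least 1 TPM, and ratios of counts used counts + 1. For scaling alternatives, factors came from edgeR 4.0.16 (TMM) and DESeq2 1.42.0 in R 4.3.3, with expected counts rounded to whole numbers. Only genes reaching 10 counts in both libraries entered the factors. The differences with these factors covered 23413 genes against 15571 in the main setting, so the set of genes changed along with the scaling. Other steps used Python 3.11.15, numpy 2.4.6 and pandas 2.3.3. The steps for log2 differences and the yardstick were tested on simulated data with known changes. Transcript shares, exon shares, pair ratios and motif searches were not part of that test.

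A gene with no counts could have had up to 3 counts, 0.0855 CPM in replicate 1 and 0.0718 CPM in replicate 2. These limits and the deposited intervals cover counting and assignment error only. The genes, lists and pairs were chosen with earlier results of these data known. Named from each list are its 3 highest and 2 lowest genes, those over 2-fold apart, all genes of lists of up to 6, and the 2 highest of each marker list. Protein sequences were not used here.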

Additional observations from a re-analysis of the deposited data

How the results depend on the processing

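No paired analysis was possible because there is 1 group and replicates were not compared across groups. Ratios between genes moved most where length or transcript choice entered. With counts not divided by length, log2 of Ctgf and Cyr61 over Yap1 and Wwtr1 changed sign to -0.52, and the mean was -1.71 for Tead1 over Tead2, 1.02 for Tead1 over Tead3, -1.29 for Lats1 over Lats2, -2.58 for Ctgf over Cyr61, -0.24 for the coactivators over the TEAD genes and -0.83 for the LATS genes over the coactivators. With transcripts of at least 1000 nt, chosen after seeing the data, Tead1 over Tead3 changed sign to -0.99, and the values were -3.96 for Tead1 over Tead2, 0.14 for Tead1 over Tead4, -2.90 for Ctgf over Cyr61, -0.97 for the coactivators over the TEAD genes and -1.19 for the LATS genes over the coactivators. A pseudocount of 1 gave 0.57 for Tead1 over Tead3, and posterior mean TPM gave -1.08 for the LATS genes over the coactivators. Leaving out a library gave -0.36 to 0.18 for Yap1 over Wwtr1, with a change of sign. With counts not divided by length the mean for Yap1 over Wwtr1 was -0.31, below 0 in both libraries. The number of Hippo genes past the yardstick, 1 in the text, was 0 without centring and with 10 bins, and 2 (Yap1 and Tead4) with edgeR TMM, with DESeq2 size factors and with transcripts of at least 1000 nt. It was 1 with no filter on TPM, where the gene was Tead4 and not Yap1. The number of all genes over 2-fold apart, 565 of 15571, was 375 with a pseudocount of 1, 252 of 13409 with transcripts of at least 1000 nt, 2978 of 23413 with edgeR TMM and with DESeq2 size factors, and 2663 of 25273 with no filter on TPM. No setting put a Hippo gene over 2-fold apart. The cause of each shift was not tested beyond what the setting itself changes. With 2 pools the SD itself is imprecise.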
